A study of Mus musculus with 12 samples.

Results

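The histone cluster genes described here encode the linker histones H1 and the core histones H2A, H2B, H3 and H4 of mouse liver. They were taken by name, as the genes whose symbol starts with H1f, H2ac, H2bc, H3c or H4c and goes on with a number, without pseudogenes, and with at least 10 counts summed over all libraries. Of 26301 genes in the count table, 66 carried such a symbol and 46 reached the count minimum, 6 H1, 10 H2A, 16 H2B, 6 H3 and 8 H4 genes. H3c11 was the lowest gene kept, with 10 counts, and H2ac22 and H3c1 were the highest left out, with 9 counts each. H1f3 was also chosen by its low values in the tumors labelled TKO, so its values are given below as a description and without a test.

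RNA was measured in 12 livers or liver tumors of adult mice, 4 for each condition. The groups were non-tumor livers of wild-type mice (WT), spontaneous liver tumors of Alb-Cre-E2f7 E2f8 knockout mice (DKO) and spontaneous liver tumors of Alb-Cre-Rb1 E2f7 E2f8 knockout mice (TKO). Alb-Cre is a Cre recombinase driven by the albumin promoter, so the deletions were aimed at hepatocytes, and other cells of a tumor kept the genes. The mice were in an FVB background and were ageing animals euthanized at humane end-points, with no age given for each library, and tumor tissue and genotype cannot be told apart in the comparisons with WT livers. RB and the atypical E2F proteins E2F7 and E2F8 restrain E2F-dependent transcription, and the comparisons ask what deletion of E2f7 and E2f8, and further deletion of Rb1, did to transcript levels in tumors.

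Canonical histone genes are transcribed in S phase, when new DNA is wrapped around octamers of the core histones, with H1 bound to the linker between them. Their mRNAs are the known exception among the mRNAs of animals in that they normally end in a conserved stem-loop, bound by the protein SLBP and cut with the help of the U7 small nuclear RNA, in place of a poly(A) tail. Replacement histones such as H1f0, which accumulates in resting and differentiated cells, and H1f10 are transcribed outside S phase and are polyadenylated, and some canonical genes also give rise to longer polyadenylated transcripts. These libraries were made from poly(A) RNA, so the counts of a canonical gene reflect only those of its transcripts that were carried through that selection.

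The stem-loops of 8 members with at least 100 counts are shown, since they mark the genes whose usual transcript lacks a poly(A) tail. The capitals mark the 16 bases of the stem-loop within 30 bases of the mm9 genome.
H1f2, chr13:23831374-23831403, plus strand: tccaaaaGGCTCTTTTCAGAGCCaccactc
H1f3, chr13:23647649-23647678, plus strand: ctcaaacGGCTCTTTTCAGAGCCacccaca
H1f4, chr13:23713644-23713673, minus strand: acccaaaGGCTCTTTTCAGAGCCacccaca
H2ac18, chr3:96049948-96049977, plus strand: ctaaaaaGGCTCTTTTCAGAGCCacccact
H2bc4, chr13:23776509-23776538, plus strand: ttccaaaGGCTCTTTTCAGAGCCacccact
H2bc8, chr13:23663705-23663734, plus strand: acccaaaGGCTCTTTTCAGAGCCacccata
H3c15, chr3:96042401-96042430, minus strand: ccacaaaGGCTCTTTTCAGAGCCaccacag
H4c9, chr13:22132828-22132857, minus strand: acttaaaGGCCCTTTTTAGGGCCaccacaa
The 16-base hairpin found most often after their stop codons, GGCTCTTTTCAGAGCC (6-base stem, 4-base loop, exact in 25 members), was then searched for. With up to 3 mismatches it was found within 300 bases after the stop codon (for genes with no annotated coding end, within the annotated gene or the window after it) in 39 of the 46 members, 26 of them without a mismatch. The same search found a match after 54 of 21101 other coding ends (0.256%). The match of H2ac19 and its flanks had the same 30 letters as that of H2ac18. H1f0, H1f10, H2bc18, H2bc21, H2bc22, H2bc23 and H4c2 had no match in the window, and in H2bc18, H2bc22 and H2bc23 a match lay elsewhere in the annotated gene. In 9 members the annotated gene went on for at least 500 bases past the stem-loop, by 839 bases in H1f2, by 3050 bases in H1f3 and by 7826 bases of genome, across an intron, in H2bc4.

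**Figure D1:**
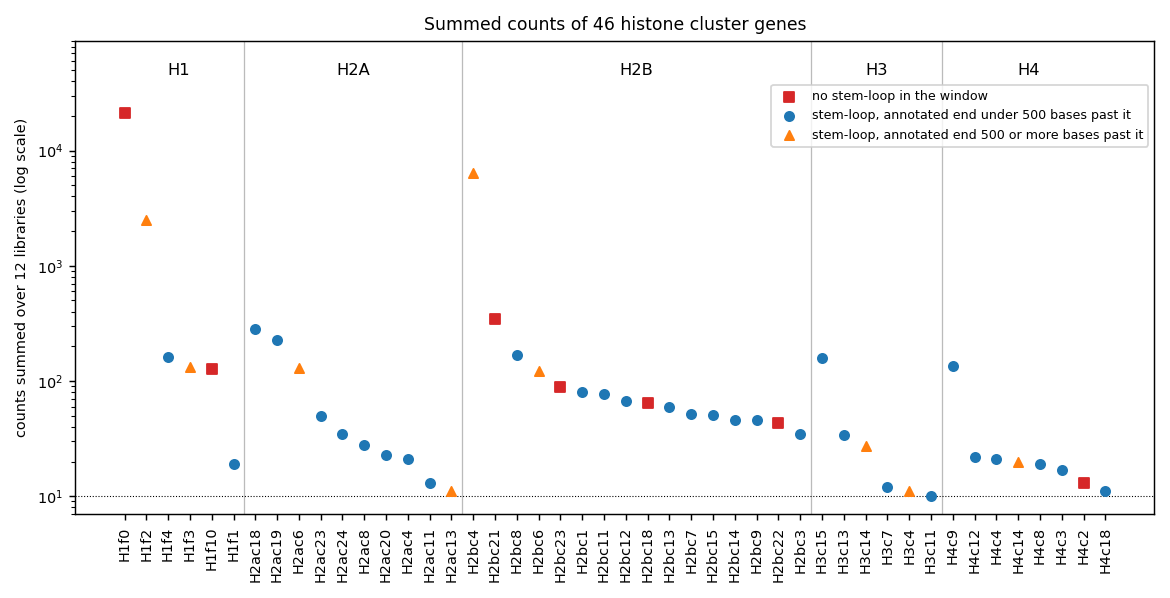
Counts of each of the 46 histone cluster genes, summed over the 12 libraries, on a log axis, ordered by histone family. Colors and symbols give the stem-loop class of the gene and the dotted line the minimum of 10 counts. H1f0, H2bc4 and H1f2 stand above all other members, which had 10 to 345 counts.

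Nearly all histone counts came from 3 genes. The 46 members had 33325 counts in all, of which H1f0 took 64.1%, H2bc4 19.05% and H1f2 7.45%, together 90.6%. The other 43 members had between 10 and 345 counts summed over the 12 libraries, and 32 members had under 100. As counts per 1e6 counts of a library, the members together took 162 to 249 in WT livers, 155 to 280 in DKO tumors and 173 to 256.05 in TKO tumors, so the 3 groups overlapped in their histone share. Total counts were 9165812 to 16424973 per library, which leaves the 32 members under 100 counts with few counts in each library. Ordered by mean level per kilobase, in CPM (counts scaled to library size with TMM) over the gene's length, H1f0 came first with 56.8, then H2bc4 with 52.5, H1f2 with 20.1, H2ac18 with 3.00, H2ac19 with 2.40 and H2bc8 with 2.18. The lengths were the RefSeq gene span for 41 members (2293 bases for H1f0 and 725 bases for H1f2) and the vM1 exons for 5 members with several exons (736 bases for H2bc4), so the order mixes 2 sources of length and is a description of these models.

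The class by stem-loop did not separate high from low members. The median summed count was 89 for the 7 genes with no stem-loop in the window (range 13 to 21377), 122 for the 9 genes whose annotation ran on past it (range 11 to 6348) and 40.5 for the 30 genes whose annotation ended near it (range 10 to 280). H1f0 belonged to the first class, and H2bc4 and H1f2 to the second. The 3 highest members were therefore a replacement-type gene and genes with an annotated longer transcript, while H4c2, also without a match, had 13 counts.

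Many members cannot be told apart by 40-base reads. Of all 40-base windows in a member's annotated exons, the median share found only once in the mm9 genome was 51.1%, with at least 90% in 8 members and under 50% in 23. H1f0, H1f1 and H1f10 were unique in every window, H1f3 in 93.7%, H1f2 in 90.2%, H1f4 in 75.3%, H2bc4 in 48.0% and H3c15 in 35.5%. For H1f0 the windows came from a vM1 model of 534 bases, short of its RefSeq span of 2293 bases. Its stem-loop search used the same short model and the window after it. H2ac18, H2ac19, H2ac23, H2ac24 and H2bc23 had no unique window, so how the authors' counting treated reads with several places decides their counts, and that setting is not given in the sources used here. H2ac18 also shared 562 annotated bases with the vM1 gene of H3c14 (Hist2h3c1) on the same strand, and H1f10 shared 213 bases with Gm5577 on the opposite strand. Within these annotated models, the H1 genes are therefore the family in which single-gene counts can be read with least ambiguity. Sums are given beside the near-identical H2A pairs.

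**Figure D2:**
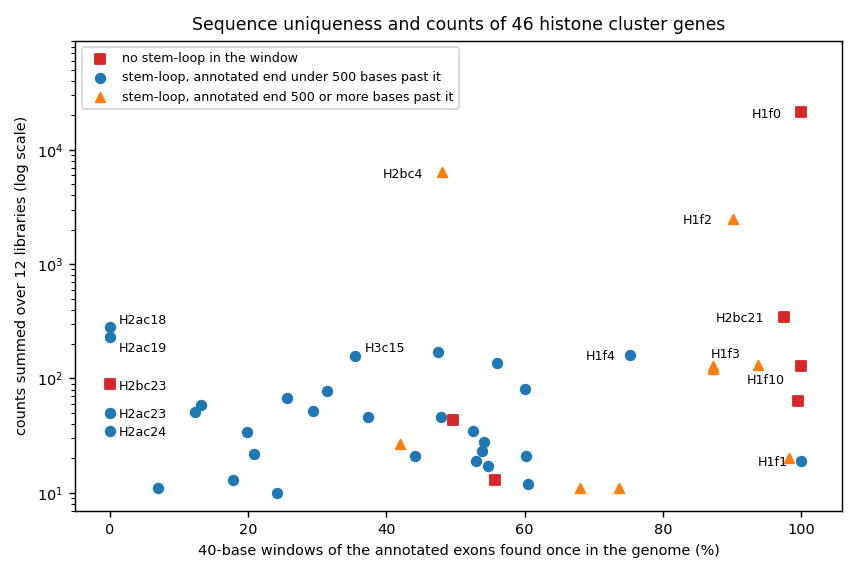
Share of 40-base windows of each gene's annotated exons that occur once in the mm9 genome (horizontal axis, %) against its counts summed over the 12 libraries (log axis), 1 point for each of 46 genes. H2ac18, H2ac19, H2bc23, H2ac23 and H2ac24 sit at 0%, and H1f0, H1f2 and H1f3 lie above 90%.

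Whole-library checks were made before the comparisons. Rb1 was at 3.21 to 5.47 CPM in TKO tumors, below every WT liver (6.52 to 10.7 CPM) and DKO tumor (7.99 to 11.3 CPM). E2f7, with 4 to 24 counts per library, and E2f8, at 4.52 to 8.97 CPM in WT livers and 7.59 to 52.2 CPM in tumors, did not fall in the tumors, but gene totals cannot tell reads of deleted exons from others. All 10 hepatocyte markers were detected in every group, with albumin at 37568 to 286273 CPM. In bulk tissue, fewer cells that express a gene and less RNA per cell cannot be told apart. The comparisons used edgeR's quasi-likelihood test on 13882 genes, with p-values adjusted over all of them by the method of Benjamini and Hochberg, and a change called at an adjusted p under 0.05. After the filter on low counts 14 of the 46 members remained (H1f0, H1f2, H1f3, H1f4, H1f10, H2ac6, H2ac18, H2ac19, H2bc4, H2bc6, H2bc8, H2bc21, H3c15 and H4c9).

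None of the 14 was called in any comparison. Of all genes tested, 2.42% were called between DKO tumors and WT livers, 0.0864% between TKO tumors and WT livers and 0% between TKO and DKO tumors. Without a correction, and leaving aside H1f3, 4 of 13 members had a p under 0.05 between DKO tumors and WT livers (all higher in DKO, against 12.9% of all genes tested), 2 of 13 between TKO tumors and WT livers (both higher in TKO, 9.94%) and 4 of 13 between TKO and DKO tumors (all lower in TKO, 3.84%). DESeq2 called 2 of the 19 members it tested between DKO tumors and WT livers, H1f4 and H3c15, near its share of 10.4% of all genes. It called 0 of 19 members between TKO tumors and WT livers (3.49% of all genes). Between TKO and DKO tumors it called none of the members it tested other than H1f3 (0.398%). The median log2 fold change of the 13 was 0.61 for DKO against WT, -0.04 for TKO against WT and -0.37 for TKO against DKO, beside 0.02, 0.02 and 0.01 over all genes tested. These counts and medians cover only the members with enough counts to pass the filter, which favors genes that are high in some group. H1f3, H1f4, H2ac6, H3c15 and H4c9 passed it only with the DKO tumors, and H1f10 only with the TKO tumors, so the filter favored high values there. Both comparisons with WT share the same livers, and DKO against WT and TKO against DKO share the DKO tumors. High values in the DKO tumors alone raise the former and lower the latter, so these are not separate results.

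**Figure D3:**
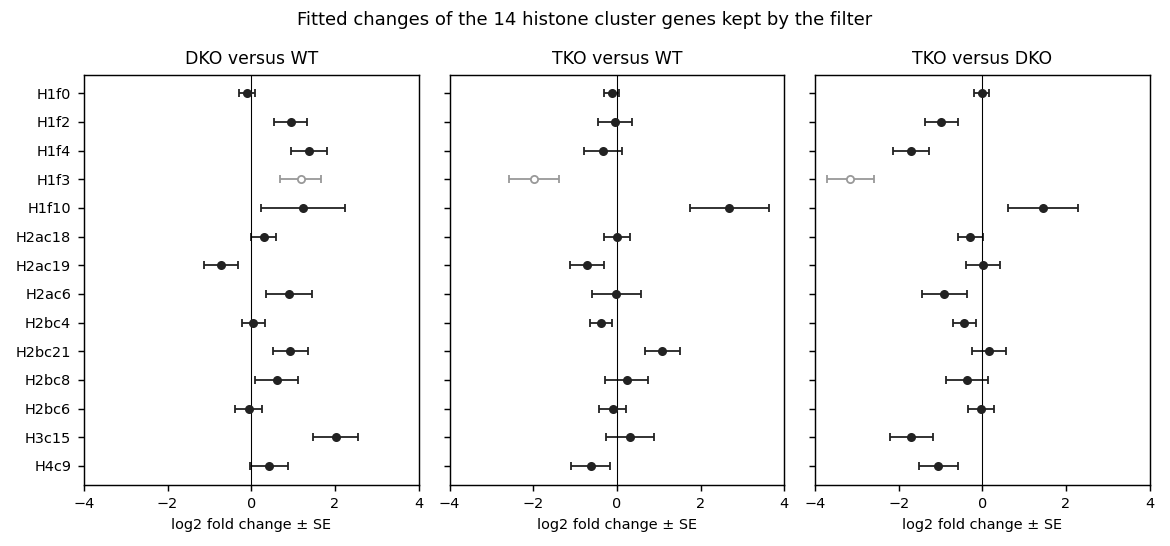
Fitted log2 fold changes with their standard errors for the 14 members that passed the filter, in the 3 comparisons. Filled points are members given with a test, and the open grey point is H1f3, which is shown as a description. The fitted changes of H1f2, H1f4 and H3c15 lie above 0 for DKO against WT and below 0 for TKO against DKO, none past the adjusted threshold. Both comparisons use the same DKO tumors, so the opposite signs are not separate results.

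Among the linker histones, H1f0 was by far the most abundant. H1f0 (Entrez 14958, mm9 chromosome 15, 78859152 to 78859689 in the vM1 annotation) is the replacement linker histone of non-dividing cells. Its level was 133, 187, 134 and 94.9 CPM in the 4 WT livers, 121, 140, 117 and 133 CPM in DKO tumors and 123, 142, 114 and 125 CPM in TKO tumors. The tumor values all fell within the range of the WT livers. The log2 fold change was -0.10 (standard error 0.180, adjusted p = 0.764) for DKO against WT and -0.12 (standard error 0.180, adjusted p = 0.787) for TKO against WT, from the edgeR test.

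H1f2 (Entrez 50708, chromosome 13, 23830676 to 23832235), a canonical H1 whose annotated single exon runs past its stem-loop, was the second linker histone in level. It was at 12.7, 15.7, 5.83 and 11.0 CPM in WT livers, 13.3, 15.98, 19.9 and 37.0 CPM in DKO tumors and 6.81, 8.67, 9.36 and 18.9 CPM in TKO tumors. The groups overlapped, and DKO replicate 4 was the highest of all 12. The log2 fold change was 0.94 (standard error 0.400, adjusted p = 0.174) for DKO against WT and -0.98 (standard error 0.398, adjusted p = 0.542) for TKO against DKO by the edgeR test. TKO tumors and WT livers had means of 10.9 ± 5.40 and 11.3 ± 4.15 CPM (SD, n = 4 each).

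H1f4 (Entrez 50709, chromosome 13, 23713624 to 23714371), another canonical H1, had 3 to 35 counts per library. Its counts were 8, 3, 12 and 10 in WT livers, 17, 31, 16 and 35 in DKO tumors and 15, 6, 4 and 5 in TKO tumors. Scaled to library size, this gave 0.369 to 0.813 CPM in WT livers, 0.946 to 2.45 CPM in DKO tumors and 0.307 to 0.904 CPM in TKO tumors, so the 4 DKO tumors lay above all WT livers and all TKO tumors. No overlap with the DKO tumors higher was seen for 8.87% of all genes tested against WT, and no overlap with TKO tumors lower for 2.12% against DKO. H1f4 passed the filter on low counts only with the DKO tumors, so it was tested through the group where it was high. The log2 fold change was 1.38 (standard error 0.426, adjusted p = 0.0860) for DKO against WT and -1.71 (standard error 0.430, adjusted p = 0.406) for TKO against DKO by the edgeR test, and over 19 alternative fits the adjusted p ranged from 0.0495 to 0.210 and from 0.0844 to 0.676.

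H1f3 (Entrez 14957, chromosome 13, 23646901 to 23650721) was the canonical H1 picked for its low values in TKO tumors. It had 9, 4, 10 and 10 counts in WT livers, 8, 26, 11 and 44 in DKO tumors and 2, 3, 1 and 3 in TKO tumors. In CPM, TKO tumors had 0.121, 0.213, 0.0767 and 0.224, below all other libraries. Of all genes tested, 3.29% lay lower without overlap in TKO tumors against WT livers, and 2.12% against DKO tumors. H1f3 was chosen by these values, so its place below the other libraries is no separate result. WT livers had 0.667, 0.492, 0.678 and 0.732 CPM, and DKO tumors 0.613, 2.06, 0.651 and 2.59 CPM. Summed over each group, it had 33 counts in WT livers, 89 in DKO tumors and 9 in TKO tumors. Within the DKO tumors, replicates 1 and 3 lay within the range of the WT livers and replicates 2 and 4 above all other libraries.

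H1f10 (Entrez 243529, chromosome 6, 87930416 to 87931476), a replacement-type H1 with no stem-loop in its window, had its highest values in TKO tumors. Its counts were 0, 3, 3 and 5 in WT livers, 1, 18, 11 and 1 in DKO tumors and 22, 43, 12 and 9 in TKO tumors. The 4 TKO tumors, at 0.671 to 3.06 CPM, lay above all WT livers, at 0 to 0.369 CPM, and overlapped the DKO tumors, at 0.0590 to 1.42 CPM. TKO tumors lay above all WT livers for 4.38% of all genes tested. H1f10 passed the filter on low counts only with the TKO tumors, so it was tested through the group where it was high. The log2 fold change was 2.69 (standard error 0.943, adjusted p = 0.199) for TKO against WT and 1.45 (standard error 0.832, adjusted p = 0.614) for TKO against DKO by the edgeR test. H1f1, the remaining H1 gene, had 19 counts in all and no library above 5.

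**Figure D4:**
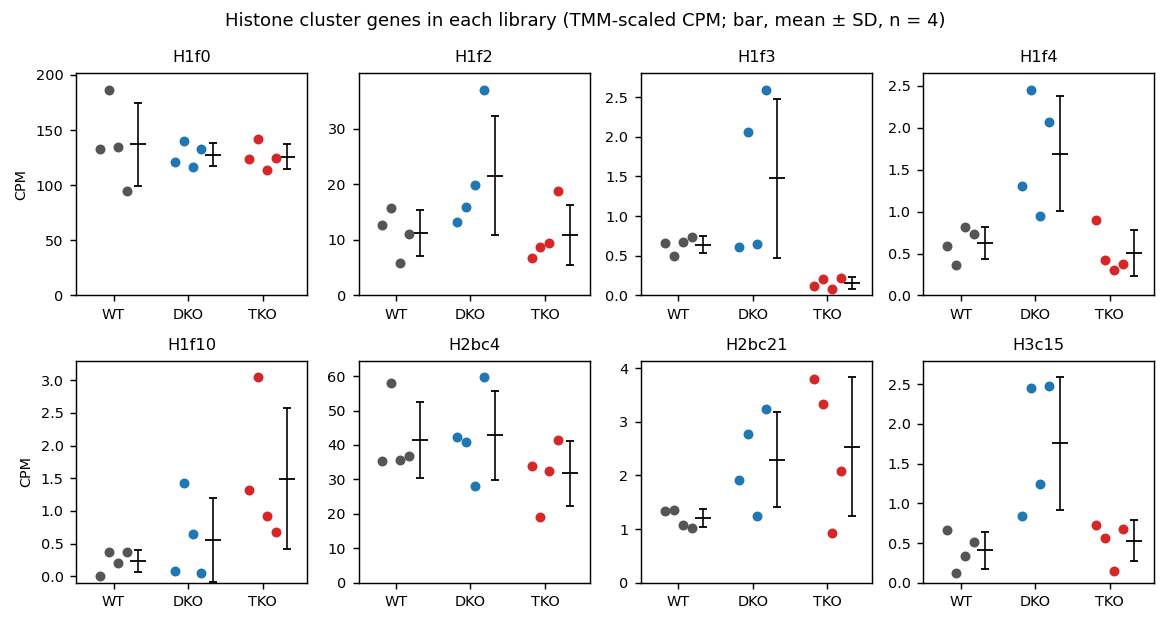
CPM of 8 histone cluster genes in each of the 12 libraries, 1 point for each, with the mean and SD of each group (n = 4) beside them. The TKO tumors lie lowest for H1f3, which was chosen by these values, at 0.0767 to 0.224 CPM. DKO tumors lie above WT livers (8.87% of all genes tested) and TKO tumors (2.12%) for H1f4 and H3c15, which passed the filter only with the DKO tumors.

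The promoters of H1f2, H1f3 and H1f4, the canonical H1 genes that passed the filter on low counts, are printed. They were picked after their values were known, and a link between promoter letters and levels was not tested. Each run covers 250 bases before and 50 after the RefSeq gene start in GRCm38.p6, a later build than that of the counts. The capitals mark AAACACA, the letters of the H1 box known from canonical H1 promoters, CCAAT and TATAA, in either direction.
H1f2, chr13:23738557-23738856, plus strand: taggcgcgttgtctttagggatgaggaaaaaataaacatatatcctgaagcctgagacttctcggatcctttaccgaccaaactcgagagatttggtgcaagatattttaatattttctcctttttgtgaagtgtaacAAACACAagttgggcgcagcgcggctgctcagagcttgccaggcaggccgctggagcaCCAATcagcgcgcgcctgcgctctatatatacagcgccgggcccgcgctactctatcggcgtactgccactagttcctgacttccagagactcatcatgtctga
H1f3, chr13:23554782-23555081, plus strand: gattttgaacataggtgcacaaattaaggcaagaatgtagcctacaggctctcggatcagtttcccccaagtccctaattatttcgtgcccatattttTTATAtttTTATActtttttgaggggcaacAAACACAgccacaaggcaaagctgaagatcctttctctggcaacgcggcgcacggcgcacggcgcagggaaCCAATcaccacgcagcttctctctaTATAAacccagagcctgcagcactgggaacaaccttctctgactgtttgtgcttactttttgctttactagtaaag
H1f4, chr13:23622509-23622808, minus strand: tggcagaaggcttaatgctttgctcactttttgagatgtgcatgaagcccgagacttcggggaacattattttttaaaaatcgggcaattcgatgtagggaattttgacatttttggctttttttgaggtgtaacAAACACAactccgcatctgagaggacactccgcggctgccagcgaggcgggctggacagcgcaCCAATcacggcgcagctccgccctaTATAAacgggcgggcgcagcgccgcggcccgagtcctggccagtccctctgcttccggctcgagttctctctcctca
All 3 held AAACACA and CCAAT, and H1f3 and H1f4 also TATAA. RefSeq promoters were found for 42 of the 46 members. On both strands, AAACACA was in 6 of 42 members (14.3%) and in 7.14% of 27025 promoters of the same length, and within the H1 family it was in these 3 of 6. CCAAT was in 35 of 42 (83.3%, against 37.9% of all), and TATAA in 30 of 42 (71.4%, against 25.5%). The E2F-type letters TTTGGCGC, TTTCCCGC, TTTGCCGC or TTTCGCGC were in 5 of 42 (11.9%, against 2.32%), in H2ac11, H2bc7, H2bc11, H2bc12 and H2bc22, and in 0 of the 6 H1 promoters. All 5 of those genes were below the filter on low counts. H2ac11 and H2bc11 face away from each other with overlapping promoter windows, so their match is shared sequence. H1f0 and H1f10 had none of the 4 motifs.

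The H2A genes had low counts and near-identical copies. H2ac18 and H2ac19 (chromosome 3, 96049461 to 96050038 and 96043639 to 96044216), which share every 40-base window with other places, together had 1.85, 4.06, 3.19 and 4.91 CPM in WT livers, 3.76, 2.29, 2.66 and 3.54 CPM in DKO tumors and 2.05, 2.98, 3.14 and 2.76 CPM in TKO tumors. The groups overlapped throughout. Singly, H2ac18 had log2 fold changes of 0.30 (standard error 0.303) for DKO against WT and 0.00 (standard error 0.308) for TKO against WT, and H2ac19 of -0.74 (standard error 0.407) and -0.72 (standard error 0.408), none called. The sum of all 10 H2A genes was 3.34 to 6.22 CPM in WT livers, 3.90 to 6.78 CPM in DKO tumors and 4.07 to 6.33 CPM in TKO tumors. The pair H2ac23 and H2ac24, also without a unique window, had 42 of its 56 TKO counts in replicate 1, with 22 and 20 counts, while no other library had more than 6 for either gene.

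Among the H2B genes, H2bc4 (Entrez 68024, chromosome 13, 23776068 to 23784357) held most of the counts. It had 35.5, 57.9, 35.6 and 36.8 CPM in WT livers, 42.4, 40.8, 28.2 and 59.7 CPM in DKO tumors and 33.9, 18.98, 32.5 and 41.6 CPM in TKO tumors. The groups overlapped, with WT replicate 2 and DKO replicate 4 as the highest. Its log2 fold change was 0.05 (standard error 0.269, adjusted p = 0.933) for DKO against WT, -0.38 (standard error 0.270, adjusted p = 0.515) for TKO against WT and -0.43 (standard error 0.269, adjusted p = 0.645) for TKO against DKO by the edgeR test.

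H2bc21 (Entrez 319190, chromosome 3, 96025044 to 96027661), an H2B gene with a long annotated transcript and no stem-loop in its window, had higher means in both kinds of tumor. WT livers had 1.34, 1.35, 1.084 and 1.03 CPM, DKO tumors 1.92, 2.77, 1.24 and 3.24 CPM and TKO tumors 3.80, 3.34, 0.920 and 2.09 CPM. In each tumor group 3 of 4 values lay above all WT livers, and replicate 3 did not. Fitted log2 fold changes were 0.94 (standard error 0.428, adjusted p = 0.206) for DKO against WT and 1.09 (standard error 0.428, adjusted p = 0.239) for TKO against WT by the edgeR test.

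H2bc8 and H2bc6 completed the H2B genes tested. H2bc8 had 6 to 16 counts in WT livers, 13 to 32 in DKO tumors and 5 to 28 in TKO tumors, and DKO replicate 2 was highest with 2.53 CPM against 0.766 to 0.997 CPM in the rest of its group. H2bc6 stayed at 8 to 13 counts in all libraries, 0.793 ± 0.315 CPM in WT livers, 0.739 ± 0.0483 CPM in DKO tumors and 0.720 ± 0.114 CPM in TKO tumors (SD, n = 4 each). The 16 H2B genes summed to 40.9 to 68.7 CPM in WT livers, 34.4 to 68.2 CPM in DKO tumors and 27.6 to 49.0 CPM in TKO tumors, with overlap between all groups.

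Of the H3 genes only H3c15 passed the filter, and it gave 105 of the 156 H3 counts in DKO tumors. H3c15 (Entrez 97114, chromosome 3, 96042040 to 96043050), a canonical H3 gene, had 9, 1, 5 and 7 counts in WT livers, 11, 31, 21 and 42 in DKO tumors and 12, 8, 2 and 9 in TKO tumors. This was 0.123 to 0.667 CPM, 0.843 to 2.48 CPM and 0.153 to 0.724 CPM, so the DKO tumors lay above all other libraries. DKO tumors lay above all WT livers for 8.87% of all genes tested, and TKO tumors below all DKO tumors for 2.12%. H3c15 passed the filter only with the DKO tumors, so it was tested by edgeR through the group where it was high. The log2 fold change was 2.02 (standard error 0.536, adjusted p = 0.0633) for DKO against WT and -1.70 (standard error 0.516, adjusted p = 0.450) for TKO against DKO by the edgeR test, and 0.32 (standard error 0.569, adjusted p = 0.834) for TKO against WT. The first of these depended on the method, with adjusted p from 0.0114 to 0.174 over 19 alternative fits, under 0.05 by DESeq2, by limma voom with quality weights and in the fit without TKO replicate 3. Its neighbor H3c14, whose stem-loop and flanks have the same 30 letters, had 27 counts in all, and the 6 H3 genes summed to 0.246 to 1.24 CPM in WT livers, 1.66 to 3.80 CPM in DKO tumors and 0.307 to 1.21 CPM in TKO tumors.

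Of the H4 genes only H4c9 passed the filter, and only with the DKO tumors. H4c9 (chromosome 13, 22132685 to 22133221) had 8, 4, 14 and 15 counts in WT livers, 10, 12, 19 and 24 in DKO tumors and 15, 6, 7 and 2 in TKO tumors, and the groups overlapped. Between TKO and DKO tumors the log2 fold change was -1.05 (standard error 0.455, adjusted p = 0.554) by the edgeR test. The sum of the 8 H4 genes was 1.22 to 2.71 CPM in WT livers, 0.997 to 2.06 CPM in DKO tumors and 0.373 to 1.99 CPM in TKO tumors.

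The 32 members below the filter had 10 to 89 counts in all and never more than 22 in a library, and 20.3% of their values were 0. The 12 H2B genes among them were the most evenly seen, with 3 of 144 values at 0, while the 7 H4 genes had 30 of 84 values at 0 and the 5 H3 genes 19 of 60. When all 23898 genes with a count were fitted without a filter, none of the 32 was called, with lowest adjusted p-values of 0.149 (H4c8, DKO against WT), 0.333 (H2ac24, TKO against WT) and 0.710 (H3c7, TKO against DKO). Unadjusted, 4, 4 and 1 of the 32 had a p under 0.05 in these comparisons, against 15.7%, 11.0% and 6.52% of all genes of that fit. H2bc18, with no match in its window and 1 of the 4 for DKO against WT, had 1 to 5 counts in WT livers, 8 or 9 in DKO tumors and 2 to 10 in TKO tumors. The others of these 4 went both ways. Summed over each group, H3c11 had 0 counts in WT livers and 6 in DKO tumors, H2bc7 had 25 and 11, and H4c8 had 13 and 2. Summed, the 32 had 4.13 to 10.5 CPM in WT livers, 4.85 to 9.02 CPM in DKO tumors and 5.15 to 9.17 CPM in TKO tumors, and these ranges overlapped.

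The 43 members other than H1f0, H2bc4 and H1f2 together had 13.1, 20.2, 13.2 and 21.4 CPM in WT livers, 17.9, 27.5, 15.7 and 25.5 CPM in DKO tumors and 22.0, 18.7, 14.5 and 14.5 CPM in TKO tumors. The groups overlapped. DKO replicates 2 and 4 were the highest of the 12 libraries. They were the highest for H1f3, H1f4 and H3c15 as well, but these genes are part of the sum, so this is no separate result. In DKO replicate 4 they gave 44, 35 and 42 of its 432 counts, and in DKO replicate 2 they gave 26, 31 and 31 of 348. The 12 mitotic genes of a fixed list summed to 139 and 35.4 CPM in DKO replicates 2 and 4, the highest and the lowest of the DKO tumors. The 22 S phase genes of another list summed to 565 and 179 CPM there, also the highest and the lowest of the DKO tumors. The part of cycling cells in the histone values was not tested.

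**Figure D5:**
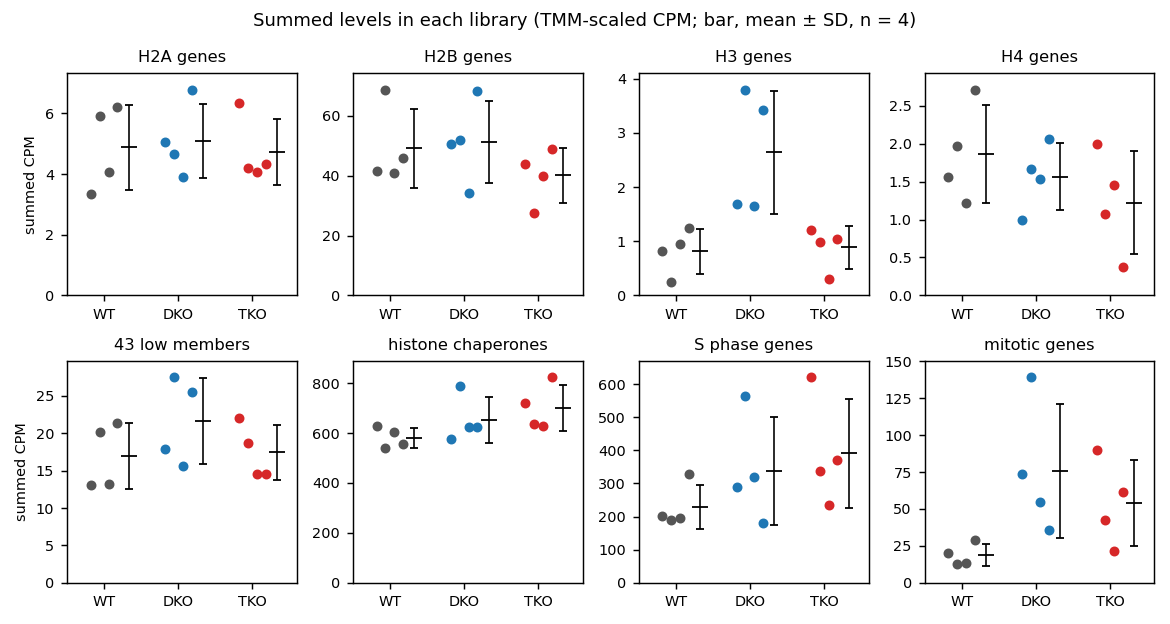
Summed CPM of histone families, of the 43 members other than H1f0, H2bc4 and H1f2 (43 low members), and of lists of histone chaperones, S phase genes and mitotic genes in each library, 1 point for each, with the mean and SD of each group (n = 4). The H3 sum is highest in DKO tumors at 1.66 to 3.80 CPM, where H3c15 alone gave 105 of 156 counts. The mitotic sums of all tumors but TKO replicate 3 lie above those of the WT livers.

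Other genes of chromatin assembly and cell division were read from lists. Of 9 variant histones, which replace canonical histones outside replication, 1 rose between DKO tumors and WT livers (2.42% of all genes were called there). This was H2ax, the H2A variant phosphorylated at DNA breaks, whose transcript also has a stem-loop form, at 10.9 ± 1.67 CPM against 6.36 ± 1.01 CPM (SD, n = 4 each; log2 fold change 0.77, standard error 0.165, adjusted p = 0.0448 by the edgeR test). In TKO tumors H2ax was at 9.74 ± 0.939 CPM (0.61 against WT, standard error 0.166, adjusted p = 0.137), and all 4 values of each tumor group lay above the WT livers. Of all genes tested, 8.87% lay above all WT livers in DKO tumors and 4.38% in TKO tumors. DESeq2 called H2ax in both comparisons with WT and no other gene of the list. At an unadjusted p under 0.05, H3f3a and Macroh2a2 were lower in DKO tumors than in WT livers (2 of 9, against 11.1% of all genes), H2ax and Cenpa were higher in TKO tumors than in WT livers (2 of 9, against 9.94%) and H3f3a was higher in TKO than in DKO tumors (1 of 9, against 5.16%). H3f3b and Macroh2a1 had log2 fold changes between -0.10 and 0.06 in all comparisons. The list's median log2 fold change was -0.12, 0.14 and 0.29 for DKO against WT, TKO against WT and TKO against DKO.

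Of 15 tested genes of histone mRNA transcription and processing, 0 were called in any comparison, with 3, 1 and 0 higher at an unadjusted p under 0.05 for DKO against WT, TKO against WT and TKO against DKO (12.9%, 9.94% and 5.16% of all genes), and 0 by DESeq2. Slbp, the stem-loop binding protein, had 12.1 ± 0.820 CPM in WT livers, 14.9 ± 5.23 CPM in DKO tumors and 15.3 ± 2.01 CPM in TKO tumors (SD; log2 fold changes 0.30 and 0.35 against WT, adjusted p = 0.396 and 0.437 by the edgeR test). Npat, the coactivator of histone gene transcription in S phase, had 6.38 ± 1.03, 5.60 ± 0.293 and 6.31 ± 1.02 CPM. The largest fitted changes were those of Ncbp2, a cap-binding subunit (0.56, adjusted p = 0.176), and Cstf2, a cleavage factor subunit (0.49, adjusted p = 0.128), both for DKO against WT. The list's medians were 0.21, 0.18 and -0.01.

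RNAs without a poly(A) tail gave a view of what else passed the selection. Of 13 such RNAs in the table, 4 were tested and 0 called in any comparison, with 0 at an unadjusted p under 0.05 and 0 by DESeq2. Their summed level was 8.34 to 20.3 CPM in WT livers, 11.96 to 15.6 CPM in DKO tumors and 11.3 to 19.97 CPM in TKO tumors. Rn7sk had 6.31, 6.16 and 8.30 CPM in WT livers, DKO tumors and TKO tumors, and Rnu7, the U7 RNA of histone mRNA cutting, 0.616, 0.461 and 0.810 CPM. Whether carry-over of RNA without a tail contributed to the counts of canonical histone genes was not tested.

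Among 18 histone chaperones, which carry histones to DNA, 0 were called in any comparison, with 2, 5 and 1 higher at an unadjusted p under 0.05 for DKO against WT, TKO against WT and TKO against DKO (12.9%, 9.94% and 5.16% of all genes), and 0 by DESeq2. The largest fitted changes were those of Chaf1b, a subunit of the replication-coupled chaperone CAF-1, for TKO against WT (1.504, adjusted p = 0.176) and of Hjurp, the chaperone of the centromeric H3, for TKO against DKO (-1.23, adjusted p = 0.572). Of 22 S phase genes, 0 were called by edgeR, with 3, 11 and 2 higher at an unadjusted p under 0.05, beside the same shares of all genes, and 1, 2 and 0 by DESeq2 (10.4%, 3.49% and 0.398% of all genes). In these comparisons 19, 21 and 17 of the 22 had a log2 fold change above 0. Rrm2, which makes deoxynucleotides, had the largest (2.12, adjusted p = 0.0656, for DKO against WT), and Prim1, a primase subunit, 1.62 (adjusted p = 0.0989) for TKO against WT. The medians of the S phase list were 0.67, 0.95 and 0.31, and those of the 13 histone members 0.61, -0.04 and -0.37.

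Of 12 mitotic genes, 2 rose between DKO tumors and WT livers (2.42% of all genes were called), Mki67, the proliferation antigen (2.89, standard error 0.595, adjusted p = 0.0425), and Plk1, a mitotic kinase (2.21, standard error 0.495, adjusted p = 0.0469 by the edgeR test). DESeq2 called 10 and 3 of the 12 in DKO and TKO tumors against WT livers (10.4% and 3.49% of all genes), and 0 between the tumors, where edgeR called 0 with 0 at an unadjusted p under 0.05. The medians of this list were 1.94, 1.51 and -0.51. Mki67 had 1.53 CPM in WT livers, 11.5 CPM in DKO tumors and 6.51 CPM in TKO tumors.

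Marker lists of the cell types in liver were read beside these values. None of the lists of hepatocyte, biliary, macrophage, lymphocyte, endothelial, stellate and fibroblast, erythroid and neutrophil markers held a called gene in any comparison by edgeR, and unadjusted between 0 and 2 genes of a list had a p under 0.05 in each, against the shares of all genes given above. By DESeq2, the hepatocyte marker Ttr fell and the endothelial markers Pecam1 and Lyve1 rose in DKO tumors, and the hepatocyte marker Asgr1 fell in TKO tumors, each against WT. DESeq2 called 10.4% and 3.49% of all genes in these 2 comparisons. The lists did not move as a whole, with fitted changes above 0 for 5 of 10 hepatocyte markers in DKO tumors and 4 of 10 in TKO tumors. Of 7 endothelial markers, 5 had a fitted change above 0 in DKO tumors. The summed levels overlapped between groups for all 8 lists, and no marker in the table had 0 counts throughout a group. Erythroid markers reached 2281 CPM in DKO replicate 4, the highest of its group (606 to 2281 CPM), macrophage markers 128 CPM there, the lowest, and hepatocyte markers 136965 CPM, also the lowest. The part of these markers in the high histone values of DKO replicate 4 was not tested.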

How the data were processed

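Poly(A) RNA was measured in 4 non-tumor WT livers, 4 DKO tumors and 4 TKO tumors. The authors placed 40-base SOLiD reads on mm9 with BWA, and featureCounts gave each gene's total. Versions, strand setting, treatment of reads with several places and counting annotation are not given in the sources used here. The authors deposited one table of raw counts, with 26301 genes and no normalization, of which 24191 genes with a symbol held 99.4% of the counts. Total counts were 9165812 to 16424973 per library.

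Genes were filtered with filterByExpr (13882 kept), scaled with TMM and tested with the edgeR quasi-likelihood F-test (edgeR 4.0.16, R 4.3.3) over all 12 libraries, with one mean per group. P-values were adjusted by the method of Benjamini and Hochberg at 0.05. The fit was tested on simulated data, with changes planted only in genes of higher counts than most members have. It did not try how well changes of members with low counts are found. Alternatives used DESeq2 1.42.0 and limma voom 3.58.1 with quality weights, other scalings and filters, a replicate block, and each library left out in turn. No pair of libraries was a duplicate within sampling noise (lowest chi-square per gene 19.9). The labels give 4 samples per condition and name no batch, so p-values measure the spread between these samples. The count columns also carry letter and number codes of unstated meaning, with some letters shared between groups, and these were not used in the fit.

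Named genes were H1f3, the 6 members highest per kilobase, every called member and, per comparison, the 3 highest and 3 lowest log2 fold changes. Other members given with values (such as H1f1, H2ac23, H2ac24, H2bc18 and H3c14) were chosen after their values were seen. Stem-loops and unique 40-base windows came from the mm9 genome with the GENCODE vM1 annotation, and promoters from RefSeq tables of GRCm38.p6. The members and lists were chosen with earlier results of these data known.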

Additional observations from a re-analysis of the deposited data

Results flagged for a closer look

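In 69 groups of 4 libraries, the highest and lowest library were compared with the rest of the group by Dixon's gap test. Values stood apart in 4 groups, in 3 libraries. Chance gives about 1 in 20 groups, so 4 of 69 is near what chance gives. H2bc4 was at 57.9 CPM in WT replicate 2, against 35.5 to 36.8 CPM in the other WT livers. H2bc8 was at 2.53 CPM in DKO replicate 2, against 0.766 to 0.997 CPM in the other DKO tumors. The H2A genes summed to 6.33 CPM in TKO replicate 1, the highest TKO value, of which H2ac23 and H2ac24, which no 40-base window tells apart from other places, gave 2.53 CPM.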

How the results depend on the processing

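Between DKO tumors and WT livers 0 members were called, as in most alternatives. DESeq2 called 2 of the 19 it tested (H1f4 and H3c15), near its 10.4% of all genes. There were 2 at an adjusted p of 0.1, 1 by voom with quality weights (H3c15), and 0 to 1 with each library left out. That 1 was H3c15 without TKO replicate 3. Between TKO tumors and WT livers 0 were called under every alternative run. Between TKO and DKO tumors 0 were called except by DESeq2, which called 1, H1f3, chosen by its values in these libraries. Counting histone genes by their older naming as well, an alternative chosen after seeing the data, added 0 calls. Without H1f0 and H1f10 the members took 66.1, 85.7 and 63.9 counts per 1e6 counts in WT livers, DKO tumors and TKO tumors, against 196.70, 213 and 199 with them. The DKO mean without them leaned on replicate 4, with 2072 such counts against 958, 1048 and 1067 in replicates 1, 2 and 3.

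Of 636 alternatives for single genes, 595 kept direction and side of the threshold, 5 newly passed it and 36 changed sign, nearly all with log2 fold changes near 0. For DKO against WT, H2bc6 was 0.17 by voom. For TKO against WT, H1f0 was 0.039 and H1f2 0.17 with library totals alone, H1f2 was 0.14 by voom, and H2ac18 was -0.016 by DESeq2, -0.012 with DESeq2 size factors and -0.051 by voom. For TKO against DKO, H1f0 was 0.076 with library totals alone, and H2ac19 -0.035 with the replicate block and -0.073 by voom. With each library left out, DKO against WT ranged from -0.25 to 0.080 for H1f0, -0.16 to 0.25 for H2bc4 and -0.21 to 0.19 for H2bc6. TKO against WT ranged from -0.27 to 0.060 for H1f0, -0.45 to 0.15 for H1f2, -0.11 to 0.12 for H2ac18 and -0.21 to 0.49 for H2bc8. TKO against DKO ranged from -0.083 to 0.026 for H1f0, -0.12 to 0.20 for H2ac19, -0.11 to 0.43 for H2bc21 and -0.80 to 0.20 for H2bc8. The cause was not tested. Library totals alone moved the median of all genes by 0.15 for TKO against WT.

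Replicate numbers do not pair these samples: same-numbered libraries deviated together with r of -0.17 to 0.37, over 0.1 in 5 of 12 pairs. With the replicate block 0 members were called in each comparison. A sex term could not be fitted because all 12 libraries were male by sex-linked genes. Depth limits the 32 members with under 100 counts, where no test was made after the filter.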
